A study of Mus musculus with 12 samples.

Results

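Tumors labelled 72 h of high intensity focused ultrasound (HIFU) were compared with untreated tumors by whole-transcriptome array. The samples were the 3 arrays titled as HIFU treated at 72 h and the 3 titled as control tumors, 6 of the 12 in the series, and all 22206 probe sets were used. HIFU concentrates sound waves inside tissue, and the series names mechanical fractionation, in which the tissue is broken up rather than heated, as the mode. Every tumor, treated or not, grew from neuroblastoma cells placed in mice of the inbred albino strain A/J, and each array held RNA from 1 frozen tumor. The HIFU 72 h tumors (n = 3) had been exposed to HIFU, and the control tumors (n = 3) had no treatment. The remaining 6 arrays, 3 each labelled 24 h and 48 h, entered the shared estimate of the spread and the comparisons between times. Taking 24, 48 and 72 h as the time since exposure is an assumption, because the titles say at those hours and another label says for them. The cell line, the site of the tumor, the age and sex of the mice, any sham exposure of controls, and the use of a separate mouse for each tumor were not given in the sources used here.

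Neuroblastoma is a tumor of the sympathetic nervous lineage whose cells make catecholamines and their storage proteins. Injured tissue draws neutrophils, which carry antimicrobial proteins in granules that are filled stage by stage while the cells mature in bone marrow. The azurophil granule enzymes are made in the earliest precursors, the specific granule proteins in later ones, and the surface receptors of mature cells last. A tumor sample can also hold host tissue, such as skeletal muscle, connective tissue, blood or bone, and its RNA is measured together with that of the tumor cells.

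Only 2 of 22206 probe sets passed the test in HIFU 72 h against control tumors, and both were higher: Lcn2 and Ibsp. The test was limma on log2 signals with Benjamini-Hochberg adjustment over all probe sets at a threshold of 0.05, with standard errors (SE) from the same fit. Those calls were 0.00901% of the probe sets in the upward direction, and 0% passed downward. Without adjustment, 2497 probe sets had a p under 0.05, 1300 higher (5.85%) and 1197 lower (5.39%), where 1110 would be expected by chance. The 3 HIFU 72 h arrays lay above all 3 controls for 1996 probe sets (8.99%) and below all 3 for 2233 (10.1%). With at least a 2-fold difference these shares were 4.74% above and 2.09% below. Control replicate 3 weighed most on the count: without it 194 probe sets passed, 43 higher and 151 lower. Without HIFU 48 h replicate 3, which enters only through the shared spread, 13 passed, and without HIFU 72 h replicate 3, 5 passed. The median difference over all probe sets was -0.057 on the log2 scale.

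**Figure D1:**
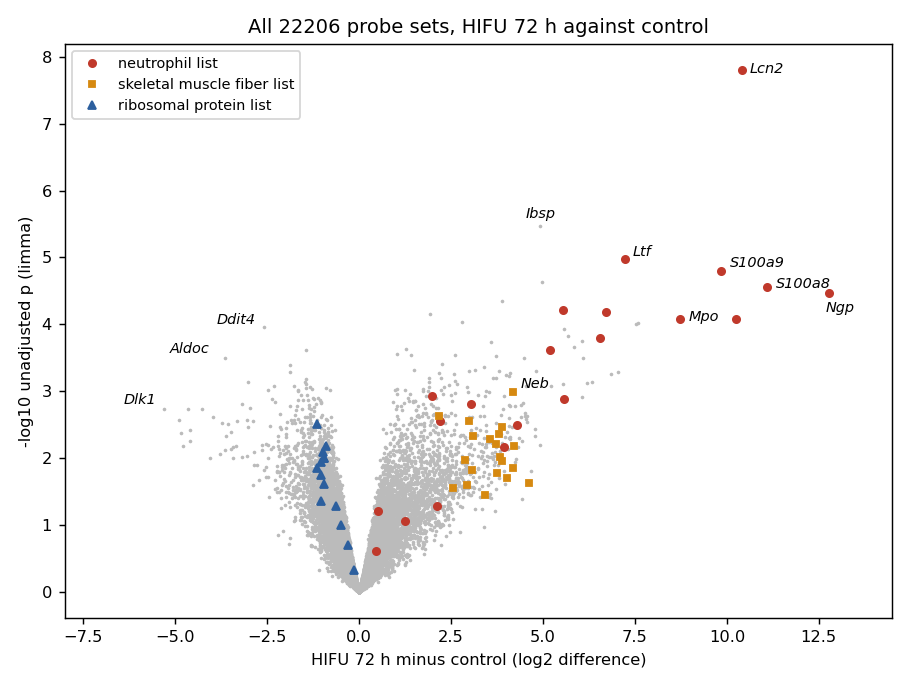
Each point is 1 of 22206 probe sets, with the log2 difference of HIFU 72 h minus control tumors (3 arrays each) on the x axis and -log10 of the unadjusted limma p on the y axis; red circles are the neutrophil list, orange squares the skeletal muscle fiber list and blue triangles the ribosomal protein list. Lcn2 stands highest on the y axis at a log2 difference of 10.41, the 20 muscle genes lie between 2.18 and 4.62, and the 14 ribosomal protein genes all lie below 0.

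The HIFU 72 h arrays were not alike. Across probe sets, replicates 1 and 3 correlated with r of 0.993, while the lowest r within the group was 0.951, against 0.975 to 0.991 within controls and 0.915 to 0.988 between the groups. On the first principal component of all 12 arrays (43.6% of the variance), HIFU 72 h replicate 2 lay at 126 and the other 2 arrays at -13.92 and 1.92, against -69.83, -78.94 and -42.67 for control replicates 1, 2 and 3. Array medians were 5.52, 5.68 and 5.555 in HIFU 72 h tumors and 5.45, 5.43 and 5.45 in controls. Values below are log2 signals, always in the order of replicates 1, 2 and 3, and a list's median difference is given without HIFU 72 h replicate 2 where that moved it by over 1.5 times, and for some other lists. Neuroblastoma markers were present in both groups. The catecholamine enzyme Dbh measured 15.73, 13.84 and 16.27 in HIFU 72 h tumors and 11.99, 14.13 and 16.11 in controls, and the receptor tyrosine kinase Ret 15.29, 12.74 and 15.35 in HIFU 72 h tumors and 15.48, 15.58 and 15.31 in controls. The noradrenaline transporter Slc6a2 was near the bottom of the scale on all 6 arrays (2.75, 2.80 and 2.98 in HIFU 72 h tumors, and 2.61, 2.55 and 2.67 in controls). Over the 20 measured genes of the neuroblastoma and sympathetic list, the median of each array relative to the control mean was 0.16, -1.56 and 0.35 in HIFU 72 h tumors and -0.54, 0.03 and 0.77 in controls.

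Promoters of the 2 genes that passed the test, and of 2 further neutrophil granule genes with large differences, are shown because their signals stood apart together in all 3 HIFU 72 h tumors. They are RefSeq sequences of assembly GRCm38.p6, 300 bases each, from 250 before the transcription start to the 50 bases that follow, in the direction of transcription. Capitals in the first 3 mark TTNNGNAA, a core recognised by the C/EBP transcription factors of the granulocyte lineage, on either strand. In Ibsp the capitals mark ATTGG, an inverted CCAAT box of a kind known from the rat gene. The positions are chr2:32387690-32387989 on the minus strand for Lcn2, chr9:111019042-111019341 on the plus strand for Ltf, chr9:110419558-110419857 on the plus strand for Ngp and chr5:104299037-104299336 on the plus strand for Ibsp.
Lcn2: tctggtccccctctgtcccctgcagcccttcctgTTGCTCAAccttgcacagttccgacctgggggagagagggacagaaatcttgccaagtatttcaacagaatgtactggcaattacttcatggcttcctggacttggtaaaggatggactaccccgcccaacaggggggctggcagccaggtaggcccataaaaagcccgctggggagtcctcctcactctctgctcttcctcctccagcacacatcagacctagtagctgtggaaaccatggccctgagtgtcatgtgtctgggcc
Ltf: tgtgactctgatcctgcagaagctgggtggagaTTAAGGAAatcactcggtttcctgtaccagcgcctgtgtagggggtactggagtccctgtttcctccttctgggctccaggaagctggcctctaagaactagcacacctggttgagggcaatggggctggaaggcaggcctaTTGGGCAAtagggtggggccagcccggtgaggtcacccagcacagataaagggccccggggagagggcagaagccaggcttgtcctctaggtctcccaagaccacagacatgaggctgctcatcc
Ngp: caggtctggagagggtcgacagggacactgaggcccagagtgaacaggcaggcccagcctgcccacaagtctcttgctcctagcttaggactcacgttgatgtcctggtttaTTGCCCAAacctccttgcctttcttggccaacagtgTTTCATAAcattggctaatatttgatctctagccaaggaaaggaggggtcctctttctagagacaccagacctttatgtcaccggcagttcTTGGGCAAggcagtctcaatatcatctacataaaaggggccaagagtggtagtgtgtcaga
Ibsp: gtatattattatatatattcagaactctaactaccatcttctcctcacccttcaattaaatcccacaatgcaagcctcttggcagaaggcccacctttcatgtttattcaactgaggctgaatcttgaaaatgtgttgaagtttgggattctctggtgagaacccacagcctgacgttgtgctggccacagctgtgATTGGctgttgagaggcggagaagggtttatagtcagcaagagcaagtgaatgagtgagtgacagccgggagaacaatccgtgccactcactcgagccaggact
The C/EBP letters occurred 1 time in the Lcn2 promoter, 2 times in that of Ltf and 3 times in that of Ngp. They are common letters, held by 40.7% of the 32851 promoters of the same length in the table, and by 10 of the 18 promoters found for the 21 measured neutrophil genes. ATTGG, counted on both strands, was in 37.4% of all promoters. The RUNX core TGTGGT, searched on both strands because RUNX factors direct bone cells, was in 16.8% of all promoters and had 0 matches in this window of Ibsp. A match is a run of letters, and no binding was measured.

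Lcn2 encodes lipocalin 2, a protein of specific granules and of the acute-phase response that binds bacterial siderophores. Its signal was 17.55, 18.81 and 15.95 in HIFU 72 h tumors, against 6.45, 6.53 and 8.09 in controls. Even the lowest treated array lay far above the highest control. Lcn2 rose by 10.41 ± 0.74 SE (limma, adjusted p = 0.000348), a 1364-fold difference on a base 2 scale. It passed under all 20 settings of the fit, with differences between 9.73 and 11.16, and without HIFU 72 h replicate 2 the difference was 9.73. At 24 h it already measured 14.87, 13.36 and 15.23, and at 48 h 14.29, 15.76 and 15.28. The 72 h mean was 2.95 above that at 24 h (adjusted p = 0.599) and 2.33 above that at 48 h (adjusted p = 0.745), so a difference between the times did not pass.

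The second gene to pass was Ibsp, which encodes bone sialoprotein, a matrix protein that binds mineral and is made by osteoblasts and cartilage cells as they mineralise. It measured 7.14, 9.05 and 6.75 in HIFU 72 h tumors and 2.79, 2.78 and 2.58 in controls. Its control signals were among the lowest on the arrays, where the lowest 25% of probe sets had means under 3.55. Ibsp rose by 4.93 ± 0.59 SE, or 30.5-fold (limma, adjusted p = 0.0375). Earlier tumors stood close to the controls, with 2.96, 3.05 and 2.90 at 24 h, while those at 48 h measured 3.40, 3.86 and 5.47. The difference of 72 h from 24 h was 4.68 (adjusted p = 0.096) and from 48 h 3.40 (adjusted p = 0.735). Of the 20 settings, 9 kept the call. It was lost with a block for the replicate number (adjusted p = 0.199), after quantile normalization (0.0634), with the 6 arrays of these groups alone (0.199), and without control replicate 1 (0.27), control replicate 2 (0.296) or HIFU 72 h replicate 1 (0.094). Leaving out any single array of the other times but HIFU 48 h replicate 3 also ended it, at adjusted p between 0.0502 and 0.114. Without HIFU 72 h replicate 2 it stayed called, at 4.23 (adjusted p = 0.0273).

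Apart from Lcn2, no neutrophil gene passed the test, although the differences in signal were large. Of the 21 measured genes of the neutrophil list, 19 lay above all 3 controls and 0 below, beside 8.99% and 10.1% of all probe sets, and the median difference was 5.56, against -0.057 over all probe sets. Relative to the control mean, the list's median was 4.76, 7.78 and 3.92 in HIFU 72 h tumors and 0.24, -0.11 and -0.01 in controls. Without HIFU 72 h replicate 2 the median difference was 4.01. In bulk tissue, a signal that is low because few cells of a type are present and one that is low because each cell holds little of the RNA cannot be told apart, and the same is true of a high signal.

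Among azurophil granule genes, Mpo, the myeloperoxidase that makes hypochlorous acid, measured 11.55, 13.88 and 11.39 in HIFU 72 h tumors and 3.56, 3.56 and 3.54 in controls. The difference was 8.72 ± 1.47 SE (adjusted p = 0.135). Elane, neutrophil elastase, measured 9.32, 12.59 and 9.71 in HIFU 72 h tumors, against 4.33, 4.04 and 3.60 in controls. For both genes every HIFU 72 h array was far above every control. The related serine proteases Prtn3 and Ctsg, proteinase 3 and cathepsin G, differed by 1.98 (adjusted p = 0.261) and 3.06 (adjusted p = 0.262), again with no overlap of the groups. Mpo, Elane, Prtn3, Ctsg and Camp below are members of the neutrophil list that were named after their values were seen.

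Of the specific granule genes, Ngp, neutrophilic granule protein, was in controls within the range of the lowest 25% of probe sets (under 3.55), where no floor is stated, so the size of its difference depends on how low signals were summarised. It measured 15.76, 17.65 and 14.14 in HIFU 72 h tumors, against 3.02, 3.13 and 3.06 in controls, a difference of 12.78 ± 1.94 SE (adjusted p = 0.108). Ltf, the iron-binding lactoferrin, gave 10.13, 13.03 and 8.46 in HIFU 72 h tumors and 3.59, 3.19 and 3.11 in controls. That difference of 7.24 ± 0.97 SE was the closest to the threshold (adjusted p = 0.0789). Ltf passed in 7 of the 20 settings of the fit, and in the others its adjusted p (limma) reached 0.451. Those that passed included the fits with the lowest 25% of probe sets left out and with an intensity trend in the variance. Leaving out HIFU 72 h replicate 2, or replicate 3, the treated array closest to the controls, also gave a pass. Camp, the cathelicidin precursor, read 7.60, 11.57 and 6.09 in HIFU 72 h tumors and 2.91, 2.57 and 3.04 in controls (difference 5.58, adjusted p = 0.262). All 3 genes were highest in replicate 2 and lowest in replicate 3. The control means of Ltf (3.30) and Camp (2.84) were also under 3.55, so the limit given for Ngp holds for them too.

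Mmp8, the neutrophil collagenase of specific granules, gave 10.22, 12.08 and 8.51 in HIFU 72 h tumors, against 3.45, 3.30 and 3.91 in controls (difference 6.72 ± 1.10 SE, adjusted p = 0.135). Mmp9, gelatinase B of the gelatinase granules, gave 6.82, 10.70 and 6.84 in HIFU 72 h tumors and 2.86, 2.83 and 3.08 in controls (difference 5.20, adjusted p = 0.209). S100a9 and S100a8 encode the calcium-binding pair calprotectin, the main cytosolic protein of neutrophils. S100a9 measured 13.89, 16.95 and 13.39 in HIFU 72 h tumors and 5.18, 4.46 and 5.10 in controls (difference 9.83 ± 1.38 SE, adjusted p = 0.0876), and S100a8 differed by 11.08 ± 1.65 SE (adjusted p = 0.102). Retnlg, a resistin-like protein of granulocytes, was higher by 10.26 ± 1.72 SE, and Chil3, a chitinase-like lectin shared with alternatively activated macrophages, by 5.56 ± 0.90 SE (adjusted p = 0.135 for both). Mrgpra2b and Mrgpra2a, Mas-related receptors found on mouse neutrophils, had differences of 4.96 ± 0.72 SE for Mrgpra2b (adjusted p = 0.102) and 3.90 ± 0.61 SE for Mrgpra2a (adjusted p = 0.124). These 2 genes are near-identical copies, so probe sets may take signal from both. The control means of S100a8 (2.85) and Mmp9 (2.92) were under 3.55, so the limit given for Ngp holds for them too.

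Receptors of mature neutrophils also lay above all controls. Cxcr2, the chemokine receptor that guides them out of marrow, measured 8.04, 10.92 and 8.12 in HIFU 72 h tumors and 5.06, 4.84 and 4.29 in controls (difference 4.30, adjusted p = 0.281). Csf3r, the receptor for granulocyte colony-stimulating factor, differed by 3.94 (adjusted p = 0.309). Cebpe, a transcription factor that directs specific granule genes, was near the bottom of the scale, with 3.15, 3.77 and 3.25 in HIFU 72 h tumors and 3.15, 2.55 and 2.96 in controls, and its groups overlapped. Ly6g and Fpr1 were not analysed here. Markers of other tissues were also higher on these arrays: the skeletal muscle median lay between 2.21 and 5.58 in HIFU 72 h tumors and between -1.41 and 2.06 in controls, with all 20 muscle genes higher on average. Its part in the neutrophil values was not tested.

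**Figure D2:**
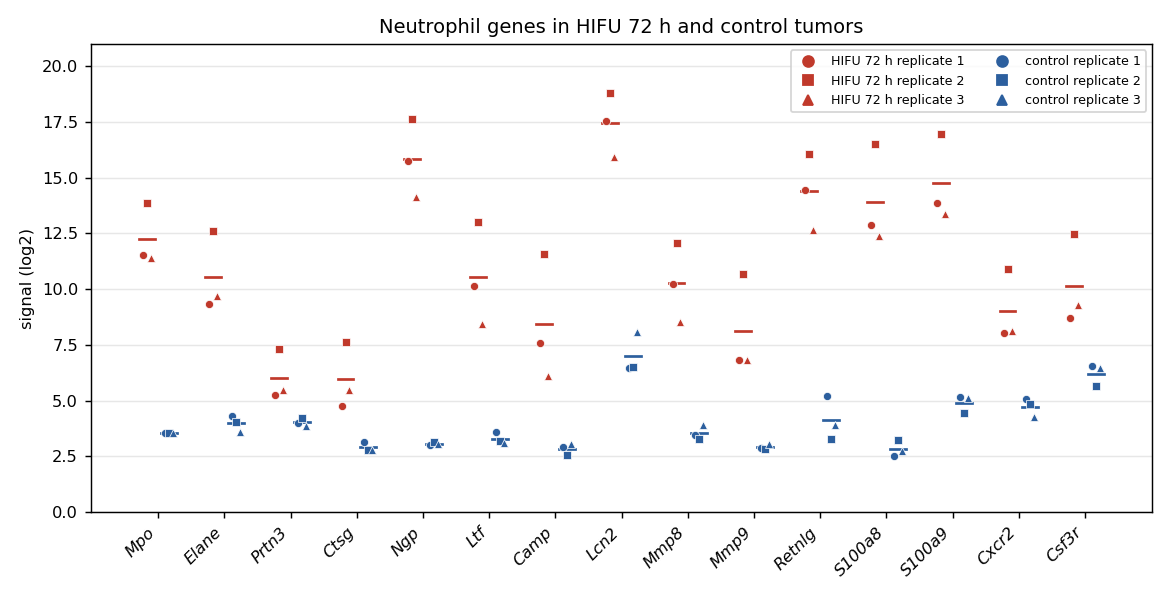
Log2 signal of 15 neutrophil genes, ordered from azurophil granule enzymes to receptors of mature cells, in HIFU 72 h tumors (red, left of each pair) and control tumors (blue, right), 3 arrays each, with bars at the group means. In every gene shown the lowest HIFU 72 h array is above the highest control, and HIFU 72 h replicate 2 is the highest array.

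Mpo of the azurophil granules and Ngp of the specific granules were low at the earlier times, with 1 exception among the arrays. Mpo measured 3.28, 3.08 and 3.81 at 24 h and 3.61, 3.51 and 10.49 at 48 h, and Ngp 4.17, 3.13 and 4.57 at 24 h and 3.43, 4.79 and 13.25 at 48 h. HIFU 48 h replicate 3 was thus high in both genes, and in Mpo the other 5 arrays of those times were close to the controls. In Ngp, HIFU 24 h replicates 1 and 3 and HIFU 48 h replicate 2 lay above every control (at most 3.13). They remained far below the HIFU 72 h arrays. The difference of 72 h from 24 h was 8.88 for Mpo and 11.89 for Ngp (adjusted p = 0.265 for both), and that from 48 h was 6.40 for Mpo and 8.69 for Ngp (adjusted p = 0.735 for both). Ltf differed by 7.40 from 24 h (adjusted p = 0.096). S100a9, by contrast, already measured 10.62, 5.90 and 9.47 at 24 h and 8.16, 11.54 and 12.91 at 48 h. Over the neutrophil list the median difference of 72 h was 4.05 from 24 h and 2.49 from 48 h. In both comparisons 0 probe sets passed (limma), while 1236 and 1390 had an unadjusted p under 0.05. Without HIFU 48 h replicate 3, 13 probe sets passed against control, among them Mpo, Ngp, Ltf, Elane, S100a8 and S100a9. In that fit 7 passed against 24 h and 2, Ngp and Mpo, against 48 h. The array left out was the 48 h array that was high in both genes. Leaving it out lowers their 48 h means and their spread, so these calls were largely given in advance. They are no test of a difference between the times.

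**Figure D3:**
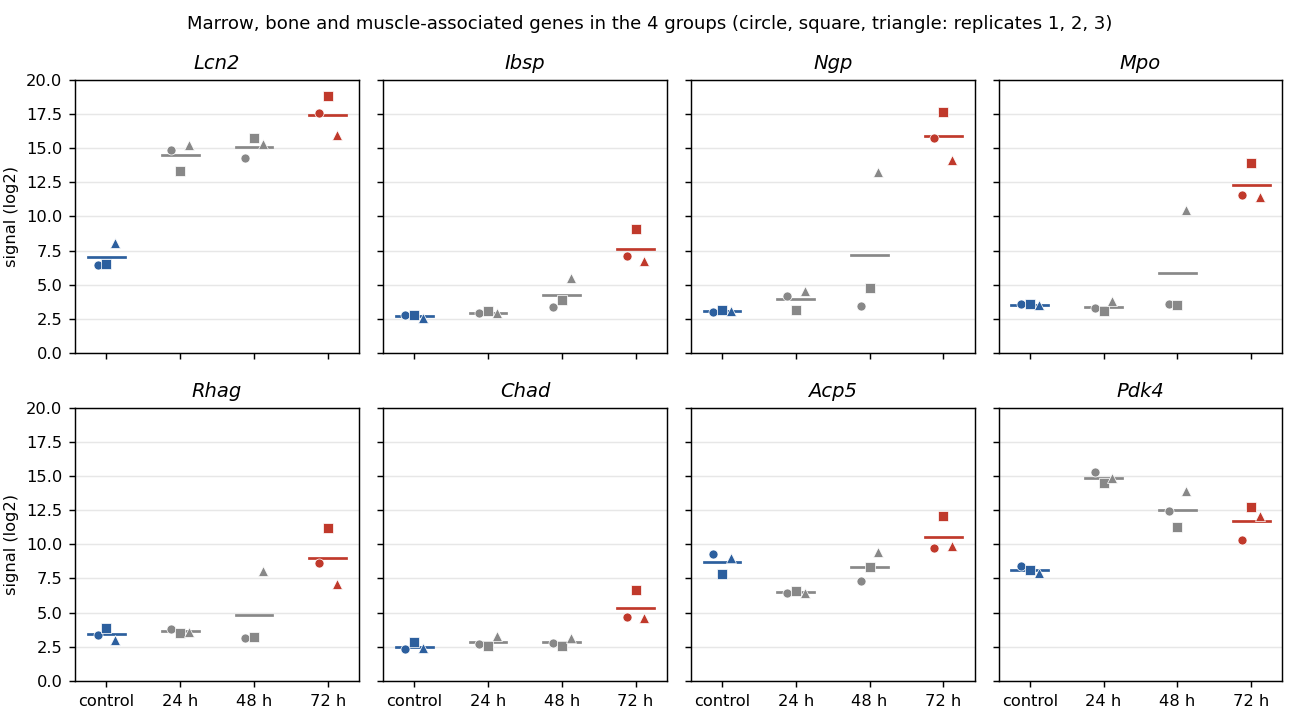
Log2 signal of 8 genes in control tumors (blue), at 24 h and 48 h (grey) and at 72 h (red), 3 arrays per group with bars at the means; circles, squares and triangles are replicates 1, 2 and 3. Lcn2 is already high at 24 h, whereas Mpo and Rhag are near the control level at that time and Ngp is at or somewhat above it. Ngp, Mpo and Rhag are high on the third 48 h array and on all 72 h arrays.

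No erythroid or platelet gene passed the test. Of 9 measured genes of the erythroid list, 8 lay above all 3 controls and 0 below, beside 8.99% and 10.1% of all probe sets. The median difference was 3.28, with 0 past the test. The list's median relative to the control mean was 2.03, 5.74 and 1.78 in HIFU 72 h tumors and -0.17, 0.34 and -0.27 in controls, and without HIFU 72 h replicate 2 the difference was 2.05. Rhag, the Rhesus-associated glycoprotein of the red cell membrane, measured 8.61, 11.21 and 7.06 in HIFU 72 h tumors and 3.37, 3.86 and 3.01 in controls. That difference was 5.55 ± 1.22 SE (adjusted p = 0.255). Ermap, a red cell membrane protein, differed by 4.08 and Slc4a1, the band 3 anion exchanger, by 4.40 (adjusted p = 0.255 and 0.262). Gata1, the transcription factor that red cell and platelet precursors share, differed by 0.99 (adjusted p = 0.266), with no overlap of the groups. The exception was Tfrc, the transferrin receptor, whose groups overlapped and which most dividing cells also express. HIFU 48 h replicate 3, the array high in Mpo, also measured 8.05 for Rhag, against 3.17 and 3.19 for the other 48 h arrays. Alas2, the first enzyme of haem synthesis in red cells, measured 7.91, 11.15 and 6.89 in HIFU 72 h tumors and 4.75, 5.11 and 5.47 in controls, and was also high on HIFU 24 h replicate 3, at 9.65. The globin genes were not analysed here.

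Of 9 platelet and megakaryocyte genes, 6 lay above all 3 controls and 0 below, beside 8.99% and 10.1% of all probe sets (median difference 1.44). Ppbp, the platelet chemokine precursor, measured 11.23, 13.15 and 9.64 in HIFU 72 h tumors and 3.59, 4.14 and 3.73 in controls (difference 7.52 ± 1.29 SE, adjusted p = 0.135). Gp9 and Itgb3, subunits of the platelet receptors for von Willebrand factor and fibrinogen, differed by 1.51 (adjusted p = 0.262) and 2.99 (adjusted p = 0.275), and Tubb1, the platelet tubulin, by 2.25 (adjusted p = 0.29). Pf4, the other platelet chemokine, did not separate the groups, at 10.28, 14.48 and 9.79 in HIFU 72 h tumors and 12.53, 11.85 and 7.76 in controls. Vpreb1, of B cell precursors in marrow, stayed near the bottom of the scale, at 3.16, 2.89 and 3.20 in HIFU 72 h tumors and 3.70, 3.29 and 3.34 in controls.

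Bone and cartilage genes other than Ibsp were a mixed group. Of 12 measured bone and osteocyte genes, 4 lay above all 3 controls and 0 below, beside 8.99% and 10.1% of all probe sets. The median difference was 0.83, and 0.29 without HIFU 72 h replicate 2. Dmp1 and Mepe, matrix proteins of osteocytes, differed by 2.59 and 1.00 (adjusted p = 0.29 for both). Dmp1 measured 5.66, 8.41 and 5.46 in HIFU 72 h tumors and 3.68, 3.61 and 4.47 in controls, with no overlap. Bglap, osteocalcin, was high in replicate 2 only, at 5.10, 8.33 and 4.62 in HIFU 72 h tumors, against 4.94, 4.75 and 3.94 in controls. The osteoblast factor Sp7 and the osteocyte inhibitor Sost overlapped between the groups, with Sost under 3.7 on all 6 arrays. In the cartilage list, 6 of 10 genes lay above all 3 controls and 0 below (median difference 0.54). Chad, chondroadherin, measured 4.65, 6.67 and 4.59 in HIFU 72 h tumors and 2.32, 2.81 and 2.38 in controls (difference 2.80, adjusted p = 0.135), and Comp, cartilage oligomeric matrix protein, differed by 2.28 (adjusted p = 0.259). The cartilage transcription factor Sox9 went the other way, with 9.65, 8.38 and 10.14 in HIFU 72 h tumors and 12.62, 11.64 and 9.53 in controls, and its groups overlapped.

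Osteoclasts, the cells that resorb bone, are of the same marrow lineage as macrophages. Of their 9 genes, 6 lay above all 3 controls and 0 below, beside 8.99% and 10.1% of all probe sets. The median difference was 1.04, and 0.57 without HIFU 72 h replicate 2. Ctsk, the collagen-degrading cathepsin K, measured 6.99, 9.91 and 6.94 in HIFU 72 h tumors and 4.22, 4.93 and 5.01 in controls (difference 3.23, adjusted p = 0.259). Atp6v0d2, a proton pump subunit of osteoclasts, differed by 3.17 (adjusted p = 0.29). Acp5, tartrate-resistant acid phosphatase, measured 9.69, 12.04 and 9.88 in HIFU 72 h tumors and 9.31, 7.82 and 8.97 in controls, where it was well expressed. Its mean at 72 h was 4.06 above that at 24 h and 2.17 above that at 48 h. Ocstamp and Dcstamp, which direct cell fusion, overlapped between the groups at signals of at most 4.10.

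Skeletal muscle transcripts were higher on average in HIFU 72 h tumors for all 20 measured fiber genes, although controls differed greatly among themselves. The median difference was 3.74, and 11 of the 20 lay above all 3 controls, beside 8.99% of all probe sets. Neb, the giant thin filament protein nebulin, measured 12.67, 15.62 and 13.13 in HIFU 72 h tumors and 8.80, 9.08 and 10.97 in controls (difference 4.19 ± 0.96 SE, adjusted p = 0.255). Acta1, skeletal actin, differed by 2.18 (adjusted p = 0.275), with 18.75, 19.82 and 19.43 in HIFU 72 h tumors and 16.32, 16.34 and 18.79 in controls. Control replicate 3 was the highest control for both genes, and overlapped the HIFU 72 h arrays for Acta1. Over the list, control replicate 3 had a median of 2.06 above the control mean, against -1.41 and -0.53 in the other controls. The list did not separate 72 h from the earlier times, with median differences of -0.10 from 24 h and -0.24 from 48 h.

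Among genes of muscle development, Myf6, the transcription factor of mature fibers, measured 6.87, 10.87 and 7.88 in HIFU 72 h tumors and 5.78, 4.94 and 5.03 in controls (difference 3.29, adjusted p = 0.29). Myh3, an embryonic myosin, and Mymk, the fusion protein myomaker, are made when fibers form anew, and differed by 1.84 and 1.55 (adjusted p = 0.311 and 0.353). Pax7 and Myf5, which mark satellite cells, had signals of at most 3.56 on all 6 arrays. In all, 8 of 12 genes of this list lay above all 3 controls and 0 below, beside 8.99% and 10.1% of all probe sets. The median difference was 1.24, and 0.68 without HIFU 72 h replicate 2.

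Of 14 measured genes of muscle atrophy, 8 lay above all 3 controls and 1, Ddit4, below, beside 8.99% and 10.1% of all probe sets. The median difference was 1.37, and none of the genes passed the test against control or against 24 h. Pdk4, a kinase that spares glucose by restraining pyruvate oxidation, measured 10.34, 12.73 and 12.03 in HIFU 72 h tumors and 8.39, 8.08 and 7.88 in controls (difference 3.58 ± 0.66 SE, adjusted p = 0.187). At 24 h it had measured 15.27, 14.48 and 14.82, and the 72 h mean differed from that time by -3.16. Trim63 and Fbxo32 encode the ubiquitin ligases MuRF1 and atrogin-1 of muscle wasting. Trim63 measured 8.03, 12.68 and 9.77 in HIFU 72 h tumors and 6.25, 6.72 and 7.16 in controls (difference 3.45, adjusted p = 0.281), and differed by -3.98 from 24 h. Fbxo32 differed by 2.37 from control (adjusted p = 0.31) and by -3.28 from 24 h. The metallothioneins Mt1 and Mt2, which buffer zinc and are induced by stress hormones, stood 2.61 and 3.45 above control (SE 0.57 and 0.79, adjusted p = 0.255 for both), and Mt1 differed by -1.96 from its 24 h mean. The fatty acid carrier Fabp3 and the mitochondrial carrier Ucp3 differed by 3.41 and 3.63 from control (adjusted p = 0.255 for both), and by -0.23 and 0.86 from 24 h. For Pdk4, Trim63, Fbxo32, Mt1, Mt2, Fabp3 and Ucp3 the 3 HIFU 72 h arrays lay above all 3 controls. Of the 16 genes of fatty acid uptake and oxidation, 6 did so and 0 lay below, and the enzymes of the oxidation spiral itself, such as Acadm and Hadha, differed by 0.34 and 0.32.

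Connective tissue genes had the same order of arrays as muscle. Of 16 measured fibroblast and collagen genes, 13 lay above all 3 controls and 0 below, with a median difference of 2.68, and 1.85 without HIFU 72 h replicate 2. Per array, the list's median was 1.27, 4.37 and 2.38 in HIFU 72 h tumors and -0.47, -0.38 and 0.85 in controls. Dcn, the matrix proteoglycan decorin, measured 13.71, 17.45 and 13.92 in HIFU 72 h tumors and 9.77, 9.70 and 11.23 in controls (difference 4.79, adjusted p = 0.29). Col1a1, a chain of type I collagen, differed by 4.91 (adjusted p = 0.309) and Lum, lumican, by 4.44 (adjusted p = 0.306). Of 14 matrix metalloproteinases and inhibitors, 6 lay above all 3 controls and 0 below, beside 8.99% and 10.1% of all probe sets (median difference 1.78), and the 2 with the lowest p were the neutrophil enzymes Mmp8 and Mmp9. Endothelial genes had a median difference of 0.78 with 6 of 14 above all controls, led by Erg, an endothelial transcription factor, at 1.83 (adjusted p = 0.275). Adipocyte genes had a median of 0.97 with 6 of 12 above. Without HIFU 72 h replicate 2 these medians were 0.90 for the metalloproteinase list, 0.48 for endothelial and 0.26 for adipocyte genes. Muscle and connective tissue medians were both highest in HIFU 72 h replicate 2 among treated tumors and in replicate 3 among controls, and how far one carries the other was not tested.

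Of 14 measured macrophage and monocyte genes, 6 lay above all 3 controls and 0 below, beside 8.99% and 10.1% of all probe sets. None of them passed the test. The median difference was 1.60, and 0.92 without HIFU 72 h replicate 2. Lyz2, the lysozyme of myeloid cells, measured 14.53, 18.38 and 15.01 in HIFU 72 h tumors and 11.14, 10.80 and 12.31 in controls (difference 4.56, adjusted p = 0.275). Csf1r, the growth factor receptor of the lineage, differed by 2.80 (adjusted p = 0.452), with 8.80, 12.82 and 9.72 in HIFU 72 h tumors and 8.16, 6.70 and 8.08 in controls. Mertk, a receptor for the uptake of dying cells, measured 5.40, 8.27 and 6.12 in HIFU 72 h tumors and 4.67, 4.40 and 4.91 in controls (difference 1.94, adjusted p = 0.338). These 3 lay above all controls, while the complement genes C1qa, C1qb and C1qc overlapped, at differences between 0.24 and 0.50. Among genes of alternative activation, 6 of 12 lay above all 3 controls and 0 below, with a median difference of 1.88, and 1.10 without HIFU 72 h replicate 2. Cd163, the scavenger receptor for haemoglobin, measured 6.83, 10.62 and 9.03 in HIFU 72 h tumors and at most 5.18 in controls (difference 4.07, adjusted p = 0.262), and the mannose receptor Mrc1 differed by 4.06 (adjusted p = 0.278). Their 72 h means differed from those at 24 h by -0.29 for Cd163 and 0.85 for Mrc1. Hmox1, which breaks down haem, differed by 3.19 from control (adjusted p = 0.369). Of chemokines that draw monocytes, Ccl9 differed by 4.40 (adjusted p = 0.275). Cxcl2, which draws neutrophils, varied widely within the group, at 5.87, 7.96 and 10.83 in HIFU 72 h tumors, against 5.24, 5.05 and 4.17 in controls. Cxcl1 and Csf3, which also mobilise neutrophils, overlapped between the groups.

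Lymphocyte and dendritic cell lists had medians near 0. The median difference was -0.23 for 18 T cell, cytotoxic and NK cell genes, 0.20 for 12 dendritic cell genes and 0.13 for 12 B and plasma cell genes, against -0.057 over all probe sets. Of the T and NK cell genes 1 lay above all 3 controls and 3 below, of the dendritic cell genes 1 above and 3 below, and of the B and plasma cell genes 4 above and 2 below, beside 8.99% and 10.1% of all probe sets. Without HIFU 72 h replicate 2 the T and NK cell median was -0.48 and the B and plasma cell median -0.02. Itgax, the integrin CD11c, measured 3.94, 4.43 and 4.25 in HIFU 72 h tumors and 5.50, 4.72 and 4.97 in controls (difference -0.86, adjusted p = 0.295). Prf1, perforin, differed by -0.52 (adjusted p = 0.398), and its groups did not overlap. Cd72, a coreceptor of B cells, had the highest control signal of the B cell genes, with 9.85, 10.15 and 9.47 in HIFU 72 h tumors and 14.66, 11.72 and 11.77 in controls (difference -2.89, adjusted p = 0.281). Other genes of the list differed upward. Jchain, the joining chain of secreted antibodies, differed by 3.36 (adjusted p = 0.331), and Ebf1, a B cell factor also found in stroma, by 2.50 (adjusted p = 0.342), both above all 3 controls. Ms4a1, which encodes CD20, was under 3.6 on all 6 arrays. At 72 h Cd72 was 2.44 above its 24 h mean.

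**Figure D4:**
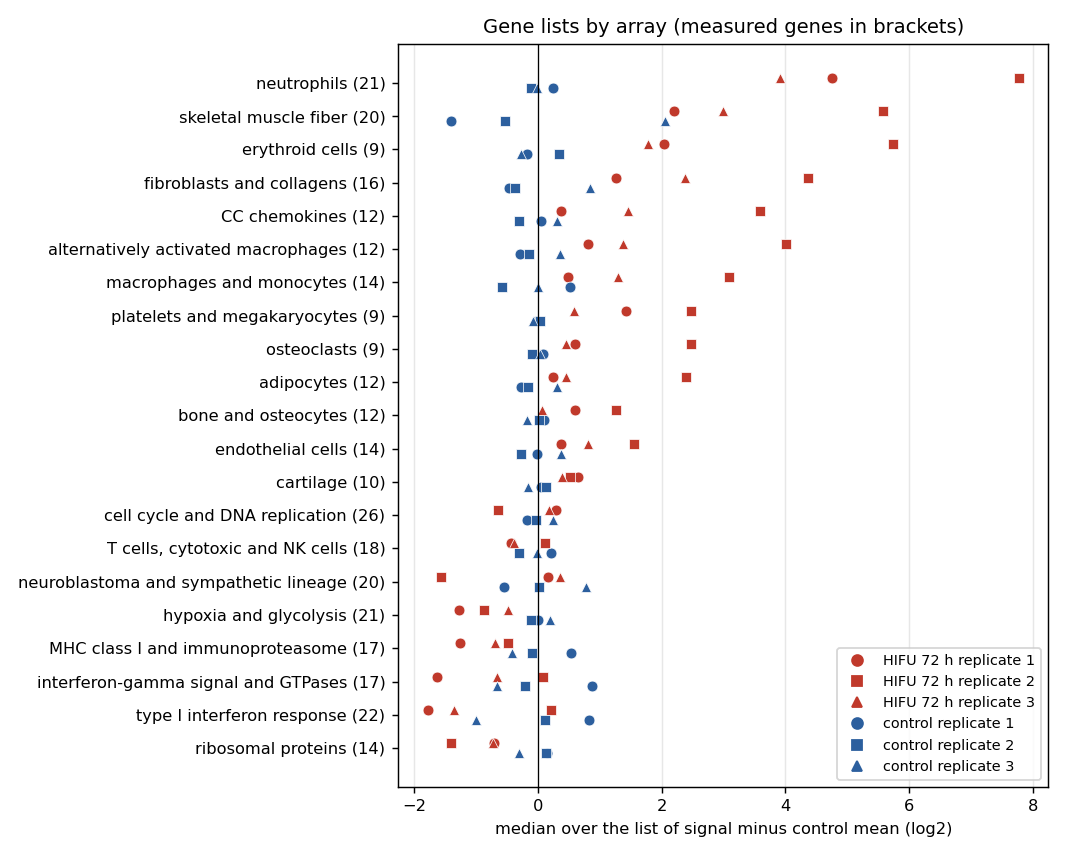
For each of 21 gene lists, the median over its measured genes (number in brackets) of the log2 signal minus the control mean of that gene, 1 point per array, with HIFU 72 h tumors in red and control tumors in blue. The neutrophil, erythroid and platelet medians of all 3 HIFU 72 h arrays lie above all controls. So do those of skeletal muscle fiber, fibroblast, alternatively activated macrophage, CC chemokine, osteoclast, endothelial and cartilage genes, some by a small margin. The ribosomal protein, hypoxia and MHC class I medians lie below all controls. Control replicate 3 stands at 2.06 for skeletal muscle fiber.

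No probe set passed as lower. The lowest adjusted p among those below control was that of Ddit4, an inhibitor of mTOR signaling induced by low oxygen and by stress. It measured 9.70, 9.40 and 11.16 in HIFU 72 h tumors and 12.52, 12.30 and 13.17 in controls (difference -2.58 ± 0.45 SE, adjusted p = 0.146). The groups did not overlap. The difference passed in only 2 of the 20 settings of the fit, and its adjusted p (limma) reached 0.612 in the others. A setting that passed was the one without HIFU 72 h replicate 3, the treated array closest to the controls. Aldoc, an aldolase of glycolysis, measured 6.65, 6.45 and 6.61 in HIFU 72 h tumors, against 12.24, 10.04 and 8.35 in controls (difference -3.64 ± 0.72 SE, adjusted p = 0.216). The treated arrays were close together while the controls were spread widely. At 24 h and 48 h the means were 10.71 and 10.89 for Ddit4 and 5.91 and 6.83 for Aldoc. At 72 h they were 10.09 for Ddit4 and 6.57 for Aldoc. Ankrd37, a target of the hypoxia-inducible factors, measured 7.85, 6.72 and 8.31 in HIFU 72 h tumors and 9.50, 9.87 and 10.44 in controls (difference -2.31, adjusted p = 0.255).

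These 3 genes belong to the hypoxia and glycolysis list, in which 9 of 21 measured genes lay below all 3 controls and 1 above, beside 10.1% and 8.99% of all probe sets. The median difference was -0.73, with -0.95 without HIFU 72 h replicate 2 and -1.19 without HIFU 72 h replicate 3. Stc2, a secreted glycoprotein hormone, differed by -2.38 (adjusted p = 0.262), Bnip3, a receptor for the removal of mitochondria, by -1.33 (adjusted p = 0.275), and P4ha1, a collagen prolyl hydroxylase, by -1.65 (adjusted p = 0.279). Adm, the vasodilator adrenomedullin, differed by -1.74 (adjusted p = 0.309). Not every target went that way. Egln3, an oxygen-sensing hydroxylase that muscle also expresses, measured 7.77, 11.36 and 8.33 in HIFU 72 h tumors and 7.69, 6.05 and 7.08 in controls, and the core glycolytic genes Ldha and Pgk1 overlapped between the groups.

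For some genes with low signal in HIFU 72 h tumors the controls differed widely among themselves. Dlk1, an imprinted Notch-like protein of immature sympathetic and adrenal cells, measured 9.82, 7.34 and 9.19 in HIFU 72 h tumors and 16.45, 15.65 and 10.12 in controls (difference -5.29 ± 1.31 SE, adjusted p = 0.266). Control replicate 3 stood just above the highest HIFU 72 h array. Plag1, a zinc finger factor that drives growth genes, had the same order, at 4.36, 3.44 and 4.29 in HIFU 72 h tumors and 8.25, 7.77 and 5.16 in controls (difference -3.03, adjusted p = 0.255). Tbx2, a T-box factor of the sympathetic lineage, differed by -1.52 (adjusted p = 0.344). In contrast, Hey2, a Notch target gene, had even controls, with 6.50, 5.11 and 6.31 in HIFU 72 h tumors and 7.35, 7.40 and 7.61 in controls (difference -1.48, adjusted p = 0.255). Control replicate 3, low in Dlk1 and Plag1, was also the control with the highest muscle median, and the link between them was not tested. Low means were not particular to 72 h. Dlk1 had means of 8.25 at 24 h and 7.50 at 48 h, against 8.78 at 72 h. Plag1 had means of 5.29 at 24 h and 5.11 at 48 h, against 4.03 at 72 h.

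Other genes with low p in this direction had various roles, and none passed. Mtmr2, a phosphoinositide phosphatase, measured 11.96, 11.64 and 11.65 in HIFU 72 h tumors and 13.50, 13.35 and 12.74 in controls (difference -1.45, adjusted p = 0.209). Its mean was 11.60 at 24 h and 11.67 at 48 h, against 11.75 at 72 h. Ifi27, an interferon-induced membrane protein, measured 9.32, 8.67 and 9.84 in HIFU 72 h tumors and 11.06, 11.26 and 11.15 in controls (difference -1.88, adjusted p = 0.255). Ciart, a repressor of the circadian clock, and Gjc1, the gap junction protein connexin 45, differed by -1.88 and -1.44, also at adjusted p = 0.255. Adat2, which deaminates adenosine in transfer RNA, differed by -1.78, and Nip7, which helps assemble ribosomes, by -1.34. All of these lay below all 3 controls. Of the 15 clock genes 1, Ciart, lay below all 3 controls and 0 above, under the shares of 10.1% and 8.99% of all probe sets. Arntl, Clock and the Per genes overlapped. In the upward direction the 12 genes with the lowest p held 1 gene with no granulocyte or bone role known here, Ehd3, an endocytic recycling protein, at 6.08, 6.66 and 6.09 in HIFU 72 h tumors and 4.39, 4.27 and 4.42 in controls (difference 1.92 ± 0.32 SE, adjusted p = 0.135).

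Ribosomal protein genes were a group of small, even differences. All 14 measured members of the list had lower means in HIFU 72 h tumors, and the median difference was -0.96. Of these, 13 lay below all 3 controls, beside 10.1% of all probe sets. Rps13, which was named from all genes rather than from the list, measured 12.75, 12.23 and 12.53 in HIFU 72 h tumors and 14.26, 13.90 and 13.69 in controls (difference -1.45, adjusted p = 0.255). Rpl32 differed by -1.14 (adjusted p = 0.281) and Rps16 by -0.89 (adjusted p = 0.309). Per array, the median of the list was -0.71, -1.40 and -0.73 in HIFU 72 h tumors and 0.15, 0.13 and -0.31 in controls. HIFU 72 h replicate 2, the lowest in ribosomal protein genes, was the highest in the neutrophil, muscle and connective tissue lists, and the part of those in the ribosomal protein values was not tested. Without that replicate the median was -0.68. Proliferation genes did not separate the groups: the median over 26 cell cycle and DNA replication genes was -0.038, and 0.22 without HIFU 72 h replicate 2. Of the 26, 1 lay above and 2 below all controls, under the shares of 8.99% and 10.1% of all probe sets. The 1 above was Mki67, the proliferation antigen Ki-67, at 16.42, 15.88 and 15.76 in HIFU 72 h tumors and 15.27, 15.25 and 15.27 in controls (difference 0.76, adjusted p = 0.369).

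**Figure D5:**
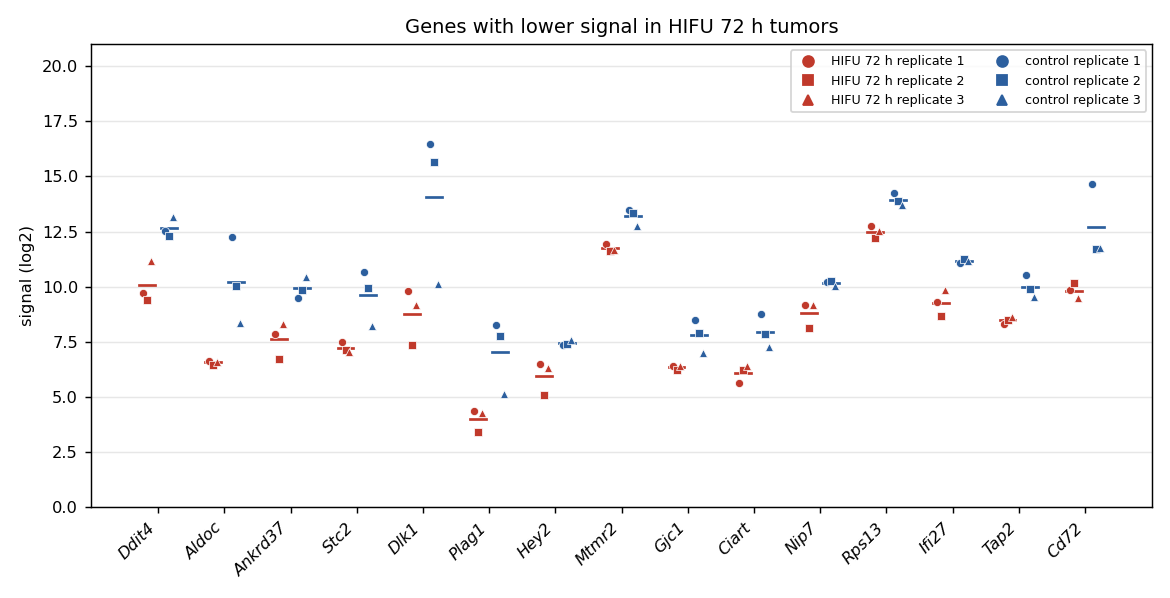
Log2 signal of 15 genes with lower mean in HIFU 72 h tumors (red, left of each pair) than in control tumors (blue, right), 3 arrays each, with bars at the group means; none of them passed the test. The groups do not overlap in any gene shown, and control replicate 3 is the lowest control for Aldoc, Stc2, Dlk1, Plag1 and Tap2, among others.

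No gene of antigen presentation or of the interferon lists passed the test against control or against 24 h. In the MHC class I and immunoproteasome list, 16 of 17 genes had lower means in HIFU 72 h tumors, and the median difference was -0.74. Of the 17, 5 lay below all 3 controls, beside 10.1% of all probe sets. Tap2, a subunit of the peptide transporter, measured 8.32, 8.51 and 8.62 in HIFU 72 h tumors and 10.53, 9.89 and 9.55 in controls (difference -1.51, adjusted p = 0.281). Psme2, a proteasome activator, and Psmb8, a catalytic subunit of the immunoproteasome, differed by -0.96 and -1.35 (adjusted p = 0.294 and 0.323). The class I heavy chain H2-K1 measured 14.68, 15.75 and 15.23 in HIFU 72 h tumors and 16.04, 15.67 and 15.51 in controls, which overlap. Its 72 h mean was 1.50 above that at 24 h, and over the list's genes the median difference of 72 h from 24 h was 1.21.

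For 17 genes of interferon-gamma signaling the median difference was -0.75, with 3 below all 3 controls, beside 10.1% of all probe sets. Socs1, the feedback inhibitor of the pathway, measured 3.49, 3.68 and 3.60 in HIFU 72 h tumors and 4.33, 4.38 and 4.43 in controls (difference -0.79, adjusted p = 0.255). The interferon-induced GTPases Irgm1, Irgm2, Igtp and Gbp3 overlapped between the groups. This list's medians per array spread widely, at -1.63, 0.08 and -0.67 in HIFU 72 h tumors and 0.88, -0.21 and -0.66 in controls. Over its genes the median difference of 72 h from 24 h was 2.24. Type I interferon genes had a median difference of -0.77 over 22 members, 0 of which separated the groups. Bst2, the antiviral protein tetherin, measured 12.35, 13.28 and 13.06 in HIFU 72 h tumors and 16.27, 16.02 and 13.05 in controls (difference -2.22, adjusted p = 0.351), where again control replicate 3 was close to the treated tumors. Without HIFU 72 h replicate 2 the type I interferon median was -1.53. MHC class II genes had a median of -0.22, and -0.40 without that replicate. Of 11 measured genes 1 lay above and 1 below all 3 controls, near the shares of 8.99% and 10.1% of all probe sets.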

How the data were processed

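RNA of 12 frozen tumors was hybridised to 12 arrays of the Affymetrix Mouse Clariom S type, per the series' design text. The authors deposited log2 signals per probe set, from 1.75 to 19.93. A log scale of base 2 was inferred from that range. Per the submitters' processing notes, the software was Transcriptome Analysis Console 4.0, while summarization, background correction, filters, genome build and log base were not given in the sources used here. Normalization between arrays leaves differences mainly relative to the other genes. Precision is limited by the number of arrays, 3 per group, and there is no read depth. Since separate animals are not named, p-values measure only the spread between samples, part of which may be technical.

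Probe sets were named through the platform annotation and a RefSeq table of GRCm38.p6: 19572 had 1 symbol, 0 had several, 2634 had none, and 55 symbols had several probe sets, of which the one with the highest mean stands for the gene. Groups followed the titles. The R 4.3.3 package limma 3.58.1 (two-sided eBayes test after lmFit, with 3.37 prior degrees of freedom) fitted a mean per group to all 12 arrays, with Benjamini-Hochberg adjustment over 22206 probe sets. The fit was tested on simulated data.

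The members and the 44 gene lists were chosen with earlier results of these data known. Named genes are the 12 in each direction past the threshold with the largest difference and no overlap of arrays, filled up by unadjusted p, predicted genes left out, and the 3 members of each list with the lowest unadjusted p. A further 43 genes were chosen once their values had been seen. These include Stc2, Bnip3, P4ha1, Adm, Egln3, Trim63, Fbxo32, Tubb1, Gata1, Bglap, Csf1r, Hmox1, Cxcl2 and H2-K1. Genes given only as signals or as overlapping were chosen in the same way. The fit was repeated with a replicate block, without low signals, after quantile normalization or median centring, with a robust intensity trend, with weights for arrays, on the arrays of the compared groups alone, by unadjusted p and a 2-fold difference, and without each array in turn.

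Replicate numbers were checked as pairs by correlating deviations from the group means. Between HIFU 72 h and control tumors r was -0.09, -0.28 and 0.09 for replicates 1, 2 and 3, which does not pair them. Between 72 h and 24 h r was -0.57, -0.61 and -0.17. Between 72 h and 48 h r was 0.37, 0.62 and 0.23. Among the 48 h arrays, however, HIFU 72 h replicate 1 correlated best with replicate 3, and HIFU 72 h replicate 3 with replicate 1. Only replicate 2 matched its own number best. The check therefore does not establish pairs, and the labels name no shared animal or day. Between 72 h and 48 h a block for the replicate number gave 0 calls, as did the fit without it.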

Additional observations from a re-analysis of the deposited data

How the results depend on the processing

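The 185 named genes kept the sign of their difference between HIFU 72 h and control tumors in every setting in which they were fitted. They had been picked by non-overlap of arrays, by low p or after their values were seen. Several settings also leave the difference itself unchanged, such as dropping a 24 h or 48 h array. A kept sign was thus largely given in advance and is no test of these genes. Lcn2 passed in each. The count of 2 probe sets between HIFU 72 h and control tumors did not hold as well. It was 1 with a replicate block, 1 after quantile normalization, 2 after median centring, 3 with an intensity trend and robust estimation, 3 with only the arrays of both groups, and 4 after removing the lowest 25% by mean signal (Lcn2, S100a9, Ibsp and Ltf). Array weights, which gave HIFU 72 h replicate 2 the lowest weight of all arrays (0.306), called 1846 (870 higher, 976 lower). An unadjusted p under 0.05 with at least a 2-fold difference called 1620 (1002 higher, 618 lower). With single arrays left out, the count lay between 1 and 194. Dropping control replicate 3 gave 194 (43 higher, 151 lower), and the count was 13 without HIFU 48 h replicate 3 and 5 without HIFU 72 h replicate 3. It was 1 without control replicate 1 or 2, HIFU 24 h replicate 1 or 3, HIFU 48 h replicate 1 or 2, or HIFU 72 h replicate 1. The cause of these changes was not tested. Between 72 h and 24 h the count was 0, 7 with array weights, 2 with only both groups, 535 with the unadjusted p and 2-fold difference (426 higher, 109 lower), and between 0 and 7 with single arrays left out (7 without HIFU 48 h replicate 3, 3 without HIFU 72 h replicate 2 and 1 without HIFU 72 h replicate 3). Between 72 h and 48 h it was 0, 395 with the unadjusted p and 2-fold difference (321 higher, 74 lower), and between 0 and 2 with single arrays left out (2 without HIFU 48 h replicate 3). The replicate block changed 1 call, that of Ibsp, in the comparison with control and none in the others. Medians of gene lists moved by more than 1 SD of the HIFU 72 h arrays in 16 of 836 cases and by less in 820. That SD includes HIFU 72 h replicate 2, so the rule is lenient where this array stands apart. Settings that leave the differences unchanged are among the 820. Without HIFU 72 h replicate 2 the neuroblastoma median went from -0.32 to 0.28 and the complement median from 1.02 to -0.12. Neither counted as moved. Among the 16, leaving out the lowest 25% of probe sets took the dendritic cell median to -0.12 and that of neutrophil-attracting chemokines and receptors to 3.40. Signals in the lowest 25% have no stated floor, so differences against them depend on how low signals were summarised. This holds for Ibsp, Ngp, Ltf, Camp, S100a8, Mmp9, Rhag, Ermap and Chad, among others.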

Other observations

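Outside the lists, and chosen after their values were seen, several genes of blood cell precursors were highest in HIFU 72 h replicate 2, as granulocyte and erythroid genes were, and none passed the test. Ctse, the aspartic protease cathepsin E, measured 9.72, 13.15 and 7.51 in HIFU 72 h tumors and 2.78, 2.39 and 2.44 in controls (log2 difference 7.59 ± 1.30 SE, limma adjusted p = 0.135). Car1, a carbonic anhydrase of red cells, measured 8.68, 11.26 and 8.16 in HIFU 72 h tumors and 3.53, 3.52 and 4.04 in controls (difference 5.67, adjusted p = 0.172). Car2, the carbonic anhydrase of red cells and osteoclasts, differed by 6.20 (adjusted p = 0.255). Stfa2, a stefin of granulocytes, and Cd177, a neutrophil surface protein, differed by 5.56 (adjusted p = 0.146) and 4.47 (adjusted p = 0.216). HIFU 48 h replicate 3 again stood out from its group, with 7.29 for Ctse, against 2.76 and 3.45 in replicates 1 and 2 of that time. Prg4, the lubricin of joint and fascia surfaces, measured 11.54, 15.47 and 13.09 in HIFU 72 h tumors and 7.75, 5.72 and 7.67 in controls (difference 6.32, adjusted p = 0.255), and was at a like level at 24 h (14.57, 9.19 and 14.00). Cxcl12, the stromal chemokine that holds blood cell precursors in marrow, differed by 4.52 (adjusted p = 0.275).

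Of genes lower in HIFU 72 h tumors, Insig1 and Msmo1 belong to cholesterol synthesis and its feedback control. Insig1 measured 9.09, 8.24 and 8.53 in HIFU 72 h tumors and 10.12, 9.81 and 10.87 in controls (difference -1.65, adjusted p = 0.262), and Msmo1 differed by -1.37 (adjusted p = 0.266), with no overlap in either. A further set divided the controls as Dlk1 did. Igfbp2, an insulin-like growth factor binding protein, measured 10.51, 8.29 and 9.36 in HIFU 72 h tumors and 16.94, 15.56 and 10.30 in controls (difference -4.88, adjusted p = 0.279). Htr3a and Htr3b, the subunits of the serotonin-gated ion channel, differed by -3.64 (adjusted p = 0.313) and -4.61 (adjusted p = 0.306). Htr3b measured 7.95, 4.98 and 6.75 in HIFU 72 h tumors and 13.56, 12.75 and 7.19 in controls. Nnat, an imprinted proteolipid of neuroendocrine cells, differed by -4.60 (adjusted p = 0.29) and Dio2, which activates thyroid hormone, by -3.96 (adjusted p = 0.275). In each of these 5 genes control replicate 3 overlapped the HIFU 72 h arrays, while control replicates 1 and 2 were far above them. Their means were also low at the earlier times, such as 9.68 at 24 h and 9.49 at 48 h for Igfbp2, against 9.39 at 72 h.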
